A study of Mus musculus with 10 samples.

Results

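Fc receptors bind the constant part of antibodies and tie them to the cells of the immune system. The 6 genes described here were the rows with the symbols Fcgr1, Fcgr2b, Fcgr3, Fcgr4, Fcer1g and Fcgrt among the 24421 symbols of the count files. All 6 genes passed the filter on low counts and were tested with the other genes, 18727 in all. They were measured by RNA seq in microglia, the resident phagocytes of the brain, from the cortex of 9-month-old mice.

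WT mice gave 3 libraries. APP/PS1 mice, which carry transgenes for a mutant human amyloid precursor protein and a mutant presenilin-1, gave 4 libraries and are called untreated here, although the scheme of the experiment names a vehicle as their injection. APP/PS1 mice that received N-AS (N-acetyl sphingosine, an acetylated sphingolipid) gave 3 libraries, named APP/PS1+N-AS. N-AS was injected under the skin at 30 mg/kg every day for 8 weeks, from 7 months of age. RNA of 2 mice was pooled for each library. Libraries are therefore the replicates, and the spread between single mice cannot be seen. The WT mice received no N-AS, and no group of WT mice with N-AS is in the design.

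Activating and inhibitory Fcγ receptors oppose each other on phagocytes. Fcgr1, the high-affinity receptor for IgG, and the lower-affinity Fcgr3 and Fcgr4 are activating receptors, and their signal and their place at the cell surface depend on the common γ chain encoded by Fcer1g. That chain carries an ITAM, a tyrosine motif that is phosphorylated by Src family kinases and then recruits the kinase Syk. Fcgr2b is the inhibitory receptor of the family: it carries an ITIM, which recruits the lipid phosphatase encoded by Inpp5d. Fcgrt encodes the heavy chain of the neonatal Fc receptor FcRn, which pairs with β2-microglobulin and returns IgG from endosomes to the cell surface, so that it belongs to another branch of the family. Microglia are known to express the Fcγ receptors and to take up antibody-coated material through them.

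In the mouse genome (GRCm38, GENCODE annotation) 4 of the 6 genes lie on chromosome 1. Fcgr2b spans chr1:170958617-170976547, Fcgr4 spans chr1:171018920-171029761, Fcgr3 spans chr1:171051174-171064935 and Fcer1g spans chr1:171229572-171234365. Fcgr4 is on the plus strand and the other genes of the cluster are on the minus strand. Fcgr1 lies at chr3:96282909-96293969 and Fcgrt at chr7:45092990-45103851, both on the minus strand. The promoters of 4 genes are shown: those of the 3 activating receptors, which hold the same short sequence, and that of their γ chain gene Fcer1g, which lacks it. They run from 250 bases before to 50 bases after the start site and come from RefSeq (GRCm38.p6). Capitals mark TTCCTC, which is GAGGAA on the opposite strand, the core of the sequence that the myeloid factor PU.1 is known to bind.
Fcgr1 promoter, chr3:96293920-96294219, minus strand: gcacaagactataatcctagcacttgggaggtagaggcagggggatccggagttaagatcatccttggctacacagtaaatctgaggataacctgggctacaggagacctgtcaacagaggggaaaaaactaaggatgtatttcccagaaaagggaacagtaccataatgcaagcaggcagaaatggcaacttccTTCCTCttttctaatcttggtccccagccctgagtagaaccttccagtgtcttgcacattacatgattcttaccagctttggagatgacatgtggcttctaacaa
Fcgr3 promoter, chr1:171059345-171059644, minus strand: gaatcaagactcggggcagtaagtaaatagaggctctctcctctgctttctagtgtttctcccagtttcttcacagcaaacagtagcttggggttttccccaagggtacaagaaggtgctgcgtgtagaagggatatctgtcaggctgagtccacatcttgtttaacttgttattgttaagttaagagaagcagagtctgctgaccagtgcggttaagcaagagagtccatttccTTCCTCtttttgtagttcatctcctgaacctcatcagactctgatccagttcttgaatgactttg
Fcgr4 promoter, chr1:171018676-171018975, plus strand: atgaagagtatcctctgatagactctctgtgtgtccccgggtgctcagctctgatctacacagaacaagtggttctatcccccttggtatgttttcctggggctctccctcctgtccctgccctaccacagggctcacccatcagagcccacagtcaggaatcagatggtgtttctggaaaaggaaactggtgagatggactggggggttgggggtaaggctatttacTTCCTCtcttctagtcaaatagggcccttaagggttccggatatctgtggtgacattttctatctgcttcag
Fcer1g promoter, chr1:171234300-171234599, minus strand: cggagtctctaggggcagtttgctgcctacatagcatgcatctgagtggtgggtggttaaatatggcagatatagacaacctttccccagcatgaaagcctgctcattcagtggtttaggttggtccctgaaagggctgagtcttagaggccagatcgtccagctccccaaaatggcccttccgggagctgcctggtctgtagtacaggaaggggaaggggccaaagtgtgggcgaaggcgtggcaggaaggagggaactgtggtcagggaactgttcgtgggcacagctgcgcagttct

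GAGGAA was found at position −55 from the start site in Fcgr1, at −15 in the Fcgr3 window shown and at −22 in Fcgr4, each on the strand opposite to the gene. It was not found on either strand in the windows of Fcgr2b, Fcer1g or Fcgrt. Of 32851 RefSeq promoters of the same length, 28.3% held GAGGAA, so a match in these windows is common. The STAT-type sequence TTCNNNGAA was found in Fcgr1 at −109 (8.3% of promoters) and the interferon-type sequence GAAANNGAA in Fcgr4 at −73 (8.56%). TGANTCA (7.81%) and CACGTG (7.15%) were found in none of the members' windows. All searches covered both strands, and matches of different sequences did not overlap. A match is a description of the letters only.

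Fcgr2b and Fcgr3 are near-identical in part of their extracellular region, which bears on how their reads could be counted. The longest identical run of their coding sequences had 129 bases, and crossed an exon boundary. It is shown once, in the direction of the genes, because it is the longest coding stretch from which a read could be given to either gene. The transcripts also share windows outside this run.
shared run of Fcgr2b and Fcgr3: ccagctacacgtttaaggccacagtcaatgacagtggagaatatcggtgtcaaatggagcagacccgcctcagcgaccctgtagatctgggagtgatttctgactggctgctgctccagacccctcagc

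In Fcgr2b the run lies at chr1:170967980-170968081 and chr1:170966674-170966700, and in Fcgr3 at chr1:171057691-171057792 and chr1:171054167-171054193. Of the windows of 100 bases in annotated Fcgr3 transcripts, 44 of 1733 (2.54%) were identical to a window of Fcgr2b. In Fcgr2b 82 of 5843 windows (1.4%) were found in any other gene. Fcgr1, Fcgr4, Fcer1g and Fcgrt shared no window with another gene. How the authors assigned such reads is not given in the sources used here. Fcgr2b also overlaps the antisense gene Gm38204 by 155 exon bases. The libraries were made with a stranded kit, but the strand setting of the counting is not given.

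The total count was between 8805804 and 19432075 reads per library. All 12 marker genes of microglia were above 0 in every library. So were all markers of oligodendrocytes and neurons, which were abundant too, so counts above 0 do not set microglia apart. The summed level of the microglial markers was 821.5 to 1169 CPM (counts per gene scaled by the library's total and its TMM factor) in WT libraries, 2265 to 2796 CPM in those of APP/PS1 and 1484 to 1824 CPM in APP/PS1+N-AS libraries. The 8 oligodendrocyte markers summed to 2286 to 6531, 1838 to 4551 and 2749 to 3729 CPM, and the 6 neuronal markers to 1267 to 4505, 1715 to 2036 and 1761 to 2580 CPM. In bulk samples such as these, fewer cells of a type and less RNA per cell cannot be told apart. The sex-linked transcripts differed between the libraries, while the methods of the study name male mice. Xist had 33 to 37 reads in the WT libraries, 5253 to 11188 in the APP/PS1 libraries and 7024, 8848 and 29 in APP/PS1+N-AS libraries 1, 2 and 3. The 4 Y-linked genes counted had 1492 to 3700 reads in WT, 495 and 690 in APP/PS1 libraries 1 and 2, 13 in each of APP/PS1 libraries 3 and 4, and 470, 863 and 2377 in APP/PS1+N-AS libraries 1, 2 and 3. For WT against untreated APP/PS1 the genotype and these transcripts cannot be told apart. The labels number the libraries in running order, 1 to 6 and then 7 to 10, with each group in both sets, and values are given within the sets where they bear on a result.

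The first question was whether Fc receptor genes differed between APP/PS1 and WT microglia. Of the 6 genes, 4 were higher in APP/PS1 at an adjusted p under 0.05 (edgeR's quasi-likelihood test, Benjamini-Hochberg over all genes) and none was lower. Fcer1g was 6.31-fold, Fcgr2b 5.12-fold, Fcgr3 4.10-fold and Fcgr1 2.30-fold higher, so that both the activating receptors Fcgr1 and Fcgr3 and the inhibitory receptor were among them. Fcgr4 and Fcgrt did not pass the test. Over all genes tested 2.67% were called higher by the same test, and 8.15% had all APP/PS1 libraries above all WT libraries, as 4 of the 6 members did. At an unadjusted p under 0.05, 4 of the 6 members and 8.3% of all genes were higher. The median log2 fold change was 1.62 over the 6 members and −0.074 over all genes tested.

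**Figure D1:**
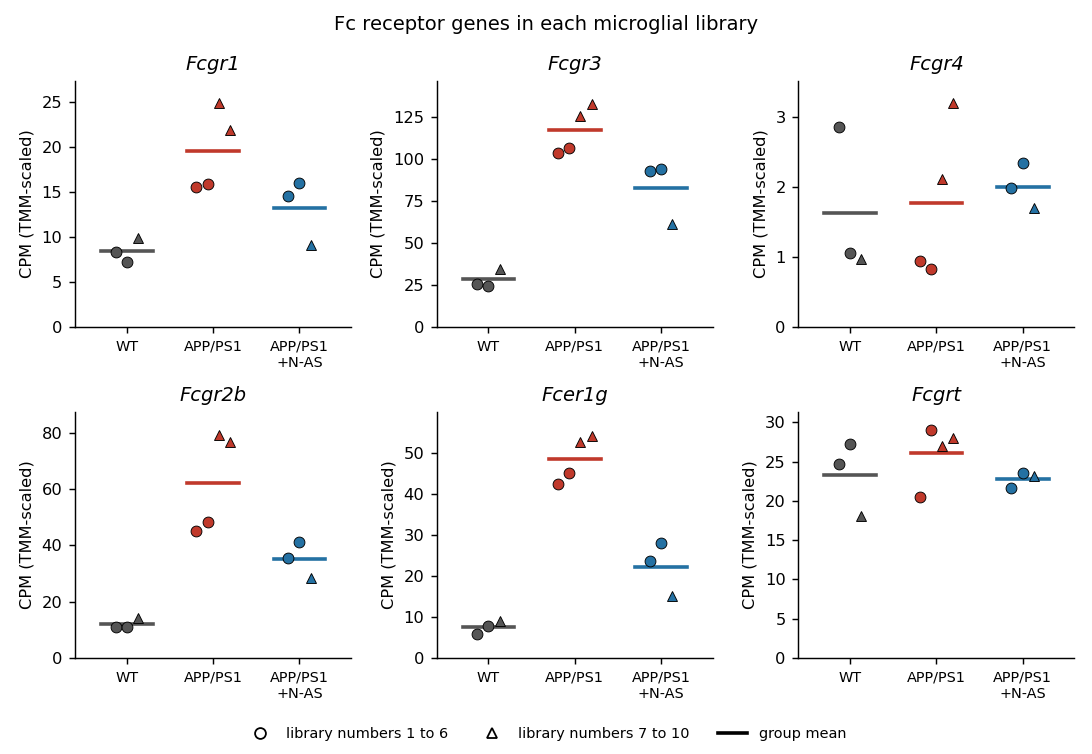
Level of each Fc receptor gene in each library (y axis, CPM scaled by TMM, starting at 0) for the 3 WT, 4 APP/PS1 and 3 APP/PS1+N-AS libraries. Circles are library numbers 1 to 6, triangles library numbers 7 to 10 and lines the group means. In Fcgr2b, Fcgr3 and Fcer1g the groups do not overlap, whereas Fcgr4 and Fcgrt overlap in all groups.

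Fcer1g, the signalling chain, had 5.94, 7.74 and 9.11 CPM in the WT libraries and 42.5, 44.9, 52.7 and 54.1 CPM in the APP/PS1 libraries. The lowest APP/PS1 library was well above the highest WT library. The log2 fold change was 2.66 ± 0.23 (SE), with an adjusted p of 0.000379. This was the largest estimate among the 6 genes, and the differences between members were not tested.

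Fcgr2b, the inhibitory receptor, had 10.9, 11.1 and 14.3 CPM in WT and 45.3, 48.3, 79.1 and 76.8 CPM in APP/PS1 libraries 1 to 4. APP/PS1 libraries 3 and 4 lay apart from libraries 1 and 2, but all 4 were above WT. Its log2 fold change was 2.36 ± 0.25 (adjusted p = 0.000764, edgeR).

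Fcgr3, an activating receptor of low affinity, had 26.0, 24.8 and 34.9 CPM in WT and 104, 107, 126 and 133 CPM in APP/PS1. The APP/PS1 libraries stood close together and far from WT, with a log2 fold change of 2.04 ± 0.20 (adjusted p = 0.000545, edgeR). These 3 genes kept an adjusted p under 0.05 in all 7 fits that left out 1 of the 7 libraries compared, with log2 fold changes from 2.52 to 2.81 for Fcer1g, 2.23 to 2.51 for Fcgr2b and 1.95 to 2.22 for Fcgr3.

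Fcgr1, the high-affinity receptor for IgG, had 8.32, 7.24 and 9.93 CPM in WT and 15.5, 15.9, 24.9 and 21.9 CPM in APP/PS1. The groups did not overlap, yet the gap between them was smaller than for the other 3 genes. The log2 fold change was 1.20 ± 0.24 and the adjusted p 0.0224 (edgeR). The call was lost when WT library 1 (adjusted p = 0.0758), WT library 2 (0.0864), APP/PS1 library 3 (0.0653) or APP/PS1 library 4 (0.0695) was left out, and the fold change stayed between 1.08 and 1.35 on the log2 scale.

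Fcgr4, the activating receptor next to Fcgr3 in the cluster, was counted with only 10 to 67 reads per library. It had 2.85, 1.05 and 0.96 CPM in WT and 0.95, 0.83, 2.12 and 3.19 CPM in APP/PS1, so that the libraries of both groups were mixed. A difference was not detectable at this depth (log2 fold change 0.21 ± 0.55, adjusted p = 0.891, edgeR), and the sign turned negative in several of the alternatives. Fcgrt, the FcRn heavy chain, had 24.7, 27.2 and 18.1 CPM in WT and 20.5, 29.0, 26.9 and 28.0 CPM in APP/PS1. Here counting was not the limit, since 208 or more reads were counted in every library, and the log2 fold change was 0.17 ± 0.17 (adjusted p = 0.673, edgeR).

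Within library numbers 1 to 6 (2 against 2 libraries) and 7 to 10 (2 against 1), the differences of mean log2 CPM were 2.66 and 2.53 for Fcer1g, 2.07 and 2.43 for Fcgr2b, 2.05 and 1.89 for Fcgr3 and 1.00 and 1.22 for Fcgr1. The 4 genes were thus higher in APP/PS1 in both sets. Fcgr4 differed in sign between the sets (−0.89 and 1.32), as did Fcgrt (−0.086 and 0.595). These values have no test.

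**Figure D2:**
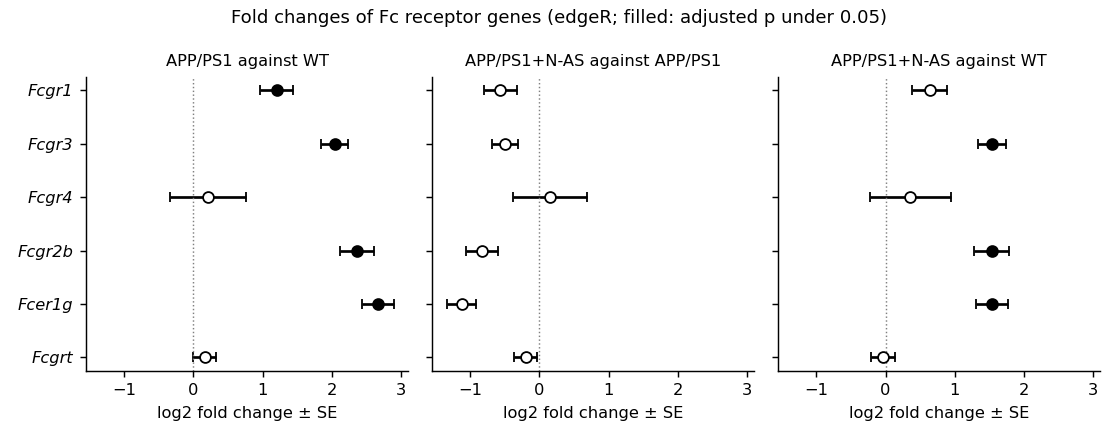
log2 fold change with its SE (x axis) of the 6 Fc receptor genes in the 3 comparisons, from edgeR. Filled points have an adjusted p under 0.05. Of the 6 genes, 4 are filled for APP/PS1 against WT, none for APP/PS1+N-AS against APP/PS1 and 3 for APP/PS1+N-AS against WT.

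The second question was what N-AS injection did to these genes in APP/PS1 mice. No gene of the 18727 tested passed the adjusted p in this comparison with edgeR, and the share called was 0%, so none of the 6 members was called either. The lowest adjusted p over all genes was 0.405, and 1653 genes had an unadjusted p under 0.05. Fcgr1, Fcgr2b, Fcgr3 and Fcer1g had lower values in the N-AS libraries, all 4 at an unadjusted p under 0.05, as 4.05% of all genes did. The groups did not overlap for 3 of the members, against 6.46% of all genes that were lower without overlap. The median log2 fold change was −0.53 over the 6 members and −0.009 over all genes.

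Fcer1g had 23.6, 28.0 and 15.2 CPM in the 3 N-AS libraries, against 42.5 to 54.1 CPM in untreated APP/PS1. All 3 values lay under the lowest untreated library and above the highest WT library. The log2 fold change was −1.12 ± 0.21, with an unadjusted p of 0.000265 and an adjusted p of 0.45 (edgeR). DESeq2 gave −1.13 with an adjusted p of 0.0014 for this gene, the only member it called, and called 79 genes in all.

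Fcgr2b had 35.7, 41.4 and 28.5 CPM in the N-AS libraries and Fcgr3 had 92.8, 94.2 and 61.8 CPM. Both genes lay under all untreated APP/PS1 libraries, but N-AS libraries 1 and 2 were close to APP/PS1 libraries 1 and 2. The log2 fold changes were −0.83 ± 0.23 for Fcgr2b (unadjusted p = 0.00411, adjusted p = 0.494, edgeR) and −0.50 ± 0.19 for Fcgr3 (unadjusted p = 0.0214, adjusted p = 0.517, edgeR).

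Fcgr1 had 14.6, 16.0 and 9.16 CPM in the N-AS libraries, so that library 2 was above APP/PS1 libraries 1 and 2 and the groups overlapped. Its log2 fold change was −0.56 ± 0.23 (unadjusted p = 0.0358, adjusted p = 0.534, edgeR). Fcgr4 had 1.98, 2.33 and 1.70 CPM (log2 fold change 0.15 ± 0.53) and Fcgrt 21.7, 23.5 and 23.2 CPM (−0.20 ± 0.17), both within the range of the untreated libraries.

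APP/PS1+N-AS library 3 was the lowest N-AS library for Fcgr1, Fcgr2b, Fcgr3 and Fcer1g, and it is also the library whose sex-linked reads were like those of WT. Without it, or without APP/PS1 library 4, 2 of the 6 genes had an unadjusted p under 0.05. Within library numbers 1 to 6, where both groups had high Xist reads and Y-linked reads between those of WT and those of APP/PS1 libraries 3 and 4, the difference of mean log2 CPM was −0.76 for Fcer1g, −0.28 for Fcgr2b, −0.17 for Fcgr3 and −0.04 for Fcgr1. Within numbers 7 to 10, where 1 N-AS library of low Xist stood against 2 untreated libraries of high Xist, it was −1.81, −1.45, −1.07 and −1.34. All 4 genes had the larger difference in the second set, and these values have no test. The replicate numbers were also fitted as a block. APP/PS1 library 4 has no partner of its number, so that fit gives it no weight in the comparison. In that fit 2 genes had an unadjusted p under 0.05. They were Fcer1g, with a log2 fold change of −1.07 (unadjusted p = 0.00215, adjusted p = 0.542, edgeR), and Fcgr2b, with −0.67 (unadjusted p = 0.0212, adjusted p = 0.581, edgeR). The part of sex-linked differences in these values was not tested. For the fits without a library and with the block, the share of all genes at an unadjusted p under 0.05 is not given here.

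The third comparison set the N-AS libraries against WT. Of the 6 genes, 3 were higher at an adjusted p under 0.05, against 0.176% of all genes, and 4 at an unadjusted p under 0.05, against 3.64%. In 3 members all N-AS libraries were above all WT libraries, as in 4.9% of all genes. The log2 fold change was 1.53 ± 0.25 for Fcgr2b (adjusted p = 0.0463), 1.54 ± 0.20 for Fcgr3 (0.0187) and 1.53 ± 0.23 for Fcer1g (0.0312, all edgeR). On the linear scale these are 2.89-fold, 2.90-fold and 2.90-fold. Fcgr1 was 0.64 ± 0.25 (adjusted p = 0.663), Fcgr4 0.36 ± 0.58 (0.959) and Fcgrt −0.032 ± 0.18 (0.994, all edgeR). This comparison shares its N-AS libraries with the second one and its WT libraries with the first.

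The 3 calls depended on single libraries and on the fit. None was called in the fit of only the 2 groups or with the replicate block, and 1 member was called with total counts only and 1 with limma. None of the 6 genes was called without WT library 1, WT library 2, N-AS library 1 or N-AS library 2, where the log2 fold changes of these 3 genes were still 1.35 or more. With N-AS library 3 alone against WT, assumed to vary like the other groups, they were 1.23 for Fcgr2b, 1.12 for Fcgr3 and 0.98 for Fcer1g, and no member was called. Within library numbers 1 to 6 (2 against 2 libraries) the differences of mean log2 CPM were 1.79 for Fcgr2b, 1.88 for Fcgr3, 1.90 for Fcer1g and 0.96 for Fcgr1, and within numbers 7 to 10 (1 against 1) they were 0.99, 0.82, 0.72 and −0.12.

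To set the genes side by side, CPM was divided by the exon length of the transcripts that match RefSeq. On this scale of CPM per kilobase, the order of the mean levels in WT was Fcgr3 (21.2 ± 4.08, SD, n = 3), Fcgrt (13.2 ± 2.64), Fcer1g (11.3 ± 2.36), Fcgr2b (3.42 ± 0.54), Fcgr1 (3.28 ± 0.52) and Fcgr4 (1.29 ± 0.85). Fcgrt and Fcer1g did not differ beyond their spread, nor did Fcgr2b and Fcgr1. In APP/PS1 the order was Fcgr3 (87.2 ± 10.6, SD, n = 4), Fcer1g (72.0 ± 8.49), Fcgr2b (17.6 ± 5.10), Fcgrt (14.8 ± 2.15), Fcgr1 (7.55 ± 1.79) and Fcgr4 (1.41 ± 0.88), and Fcgr2b and Fcgrt were within each other's spread. After N-AS it was Fcgr3 (61.6 ± 13.6, SD, n = 3), Fcer1g (33.0 ± 9.68), Fcgrt (12.9 ± 0.55), Fcgr2b (9.93 ± 1.82), Fcgr1 (5.12 ± 1.39) and Fcgr4 (1.60 ± 0.25). Fcer1g thus passed Fcgrt in both APP/PS1 groups. The place of Fcgr2b depends on its transcript: with the shortest RefSeq-matched transcript (1462 bases in place of 3544) its means were 8.30, 42.7 and 24.1 CPM per kilobase.

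The members also changed relative to each other, which can be seen in ratios of reads within a library. These ratios were chosen after the values had been seen and have no test. Per read of Fcgr3, 0.228 to 0.313 reads of Fcer1g were counted in WT libraries, 0.407 to 0.420 in those of APP/PS1 and 0.245 to 0.297 in APP/PS1+N-AS. The APP/PS1 libraries, from both sets of library numbers, were nearly equal and above all others, and the N-AS libraries fell within the WT range. Fcgr1 followed another course, with 0.285 to 0.320 reads per read of Fcgr3 in WT libraries, 0.148 to 0.198 in those of APP/PS1 and 0.148 to 0.170 in APP/PS1+N-AS, so that the ratio of the N-AS libraries stayed with untreated APP/PS1. The inhibitory Fcgr2b had 0.411 to 0.450, 0.437 to 0.628 and 0.385 to 0.462 reads per read of Fcgr3, and these groups overlapped. The ratio of Fcer1g to Fcgr1 was 0.714 to 1.07 in WT libraries, 2.11 to 2.83 in those of APP/PS1 and 1.62 to 1.75 in APP/PS1+N-AS libraries, without overlap between groups.

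**Figure D3:**
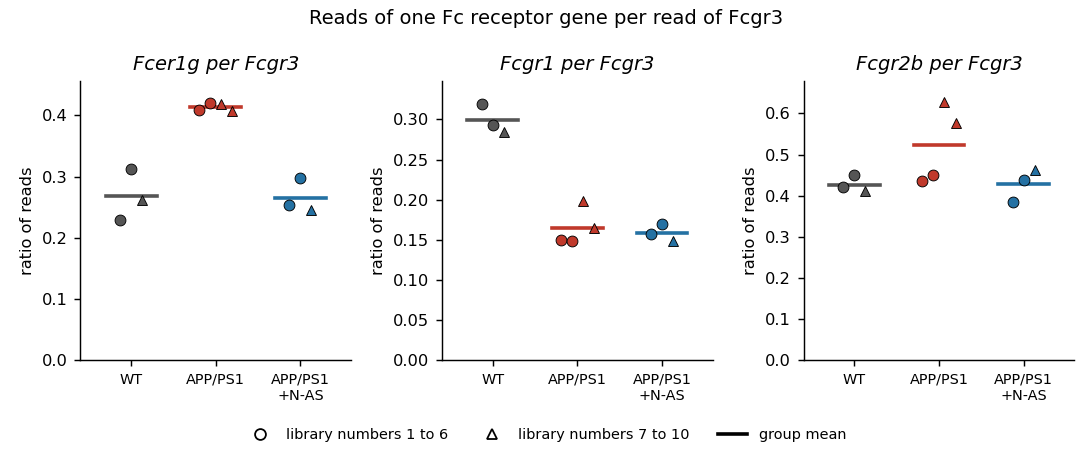
Reads of Fcer1g, Fcgr1 and Fcgr2b per read of Fcgr3 (y axis, ratio, starting at 0) in each library of the 3 groups. Circles are library numbers 1 to 6, triangles 7 to 10 and lines the group means. Fcer1g per Fcgr3 is 0.407 to 0.420 in APP/PS1 and at most 0.313 elsewhere, and Fcgr1 per Fcgr3 is at least 0.285 in WT and at most 0.198 elsewhere.

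Microglial markers were higher in APP/PS1 as well, so the members were also set against them. Of the 12 markers, 8 were higher in APP/PS1 than in WT at an adjusted p under 0.05 (edgeR), as 2.67% of all genes were. In the second comparison none was called, but 6 were lower at an unadjusted p under 0.05 (edgeR), as 4.05% of all genes were. The mean log2 CPM of the 12 markers differed by 1.08 between APP/PS1 and WT, by −0.47 between APP/PS1+N-AS and APP/PS1 and by 0.61 between APP/PS1+N-AS and WT. Relative to this mean, APP/PS1 libraries were above WT by 1.59 for Fcer1g, 1.24 for Fcgr2b and 0.96 for Fcgr3 on the log2 scale, and these groups did not overlap. Fcgr1 differed by 0.093 relative to the markers, with overlap, and Fcgrt was lower by this measure (−0.91, no overlap). For N-AS against untreated APP/PS1, Fcer1g was the only member whose groups did not overlap on this scale (−0.69). The share of all genes without overlap on this scale is not given here, for this or the other comparisons. The differences were −0.33 for Fcgr2b, −0.053 for Fcgr3 and −0.10 for Fcgr1, all with overlap. N-AS libraries were above WT relative to the markers by 0.91 for Fcgr2b, 0.91 for Fcgr3 and 0.90 for Fcer1g.

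**Figure D4:**
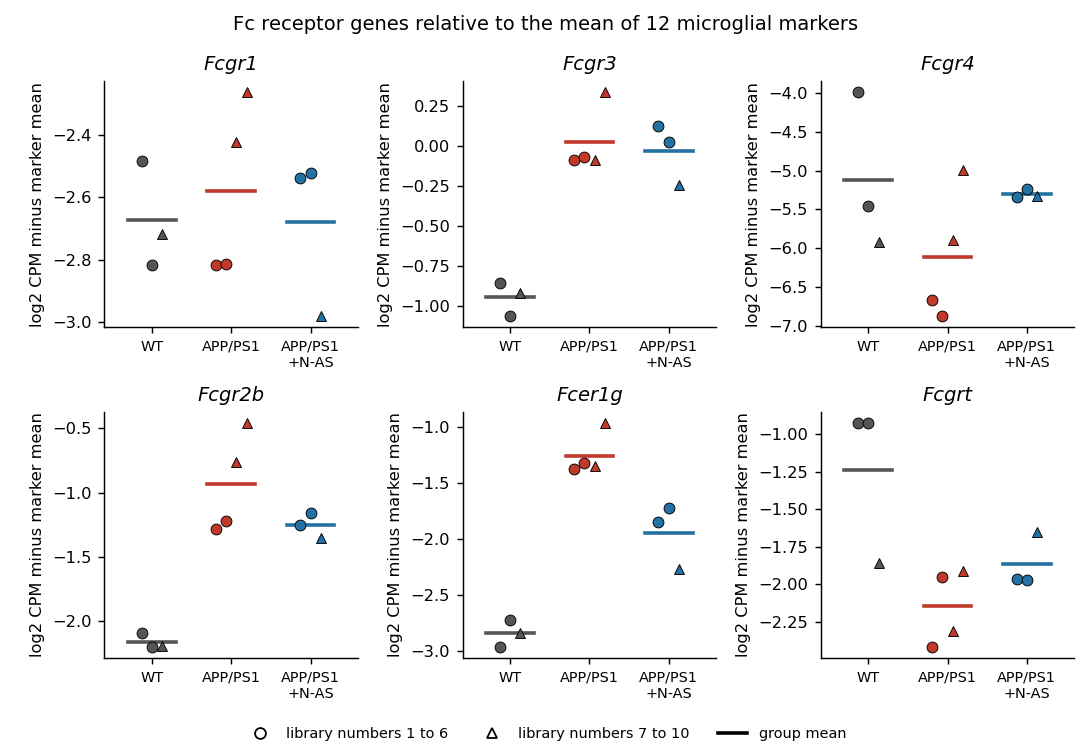
log2 CPM of each Fc receptor gene minus the mean log2 CPM of 12 microglial markers in the same library (y axis), by group. Circles are library numbers 1 to 6, triangles 7 to 10 and lines the group means. Fcer1g lies between −1.38 and −0.96 in APP/PS1, between −2.26 and −1.72 after N-AS and between −2.96 and −2.72 in WT.

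Other cells carry Fc receptors too. The neutrophil, monocyte, B cell, NK cell and border macrophage markers each summed to less than the microglial markers. In WT libraries the border macrophage markers still summed to more than Fcer1g (5.94 to 9.11 CPM), Fcgr1 (7.24 to 9.93 CPM) or Fcgr2b (10.9 to 14.3 CPM) had singly. Neutrophil markers summed to 3.81 to 9.51 CPM in WT libraries, 2.95 to 93.2 CPM in those of APP/PS1 and 5.54 to 17.0 CPM in APP/PS1+N-AS libraries, and the highest value was that of APP/PS1 library 3, with 558 reads of S100a9. Monocyte markers summed to 5.83 to 18.5, 13.1 to 22.4 and 7.64 to 11.4 CPM, B cell markers to 2.03 to 7.49, 2.31 to 5.74 and 1.63 to 2.04 CPM and NK cell markers to 1.18 to 7.84, 1.74 to 3.62 and 1.71 to 2.12 CPM. The 7 markers of border macrophages summed to 30.7 to 50.9, 25.9 to 53.2 and 24.3 to 51.7 CPM, so that the groups overlapped. All 5 monocyte markers had lower values in APP/PS1+N-AS than in APP/PS1 libraries, with a median log2 fold change of −1.24. Of the 5, 2 had an unadjusted p under 0.05, S100a4 (−2.42 ± 0.58, unadjusted p = 0.00158, adjusted p = 0.478, edgeR) and Plac8 (−2.62 ± 1.12, unadjusted p = 0.0391, adjusted p = 0.541, edgeR). These 2 genes had 0 to 31 reads per library, and 3 of the 5 markers were lower without overlap between the groups. Over all genes 4.05% were lower at an unadjusted p under 0.05 (edgeR) and 6.46% were lower without overlap. The 4 neutrophil markers tested had medians of 2.15 for APP/PS1 against WT and −1.11 for APP/PS1+N-AS against APP/PS1, none at an unadjusted p under 0.05. No gene of the neutrophil, monocyte, B cell, NK cell, mast cell, endothelial or border macrophage lists had an adjusted p under 0.05 in any comparison (edgeR). Of the 6 astrocyte markers 1, Gfap, was called higher against WT, in APP/PS1 (2.67% of all genes) and in APP/PS1+N-AS (0.176%). All 8 oligodendrocyte markers had lower values in APP/PS1 than in WT (median log2 fold change −1.15). Of them 6 were at an unadjusted p under 0.05, and 1, Cnp, was called (edgeR). Over all 18727 genes, 3221 had an unadjusted p under 0.05 in this comparison and 649 were called, in either direction. All 8 markers had higher values in APP/PS1+N-AS than in APP/PS1 (median 0.50), none at an unadjusted p under 0.05. None of the neuronal markers was called. The part of these cells in the values of the members was not tested.

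The genes that carry the signal of Fc receptors were described from lists. Of 39 genes of the activating pathway, from Src family kinases through Syk to phagocytosis, 11 were higher in APP/PS1 than in WT at an adjusted p under 0.05, as 2.67% of all genes were, and none was lower. The median log2 fold change was 0.48, against −0.074 over all genes tested. Lat2, an adaptor of the ITAM pathway, had 3.66 ± 1.12 CPM in WT (SD, n = 3), 20.4 ± 4.07 in APP/PS1 (n = 4) and 11.5 ± 2.66 in APP/PS1+N-AS libraries (n = 3). It was higher in APP/PS1 by 2.47 ± 0.26 on the log2 scale (adjusted p = 0.000841, edgeR). Among the others called were the kinase Btk, the adaptor Gab2, the phospholipase Plcg2, the exchange factors Vav1 and Dock2 and the GTPase Rac2, with log2 fold changes from 0.80 for Gab2 to 1.57 for Dock2. Syk itself was counted at 21.0, 12.1 and 16.9 CPM in WT and 25.8, 27.9, 38.6 and 25.6 CPM in APP/PS1. Those groups did not overlap, but the adjusted p was 0.0786 (log2 fold change 0.83 ± 0.23, edgeR). Of the Src family kinases, Lyn was among the genes called higher (log2 fold change 1.13 ± 0.16, adjusted p = 0.00359, edgeR). Src, which many cell types express, had a log2 fold change of −0.33 ± 0.17.

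After N-AS no gene of the activating list was called, 11 were lower at an unadjusted p under 0.05 (4.05% of all genes) and 1 was higher, and the median was −0.20 (−0.009 over all genes). Rac2, a GTPase of the phagocyte oxidase, had a log2 fold change of −0.83 ± 0.24 (unadjusted p = 0.00506, adjusted p = 0.494, edgeR). Lcp2 was the gene with the higher value (0.61 ± 0.25, adjusted p = 0.534, edgeR). Without N-AS library 3 the number of genes at an unadjusted p under 0.05 was 5, and without APP/PS1 library 3 it was 7. The share of all genes in these 2 fits is not given here. Against WT, 1 of the 39 genes was called higher in the N-AS libraries, as 0.176% of all genes were. It was Lat2 (1.64 ± 0.27, adjusted p = 0.0479, edgeR). None was called without WT library 1, WT library 2, N-AS library 1 or N-AS library 2, and 3 were called without WT library 3 or without N-AS library 3.

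**Figure D5:**
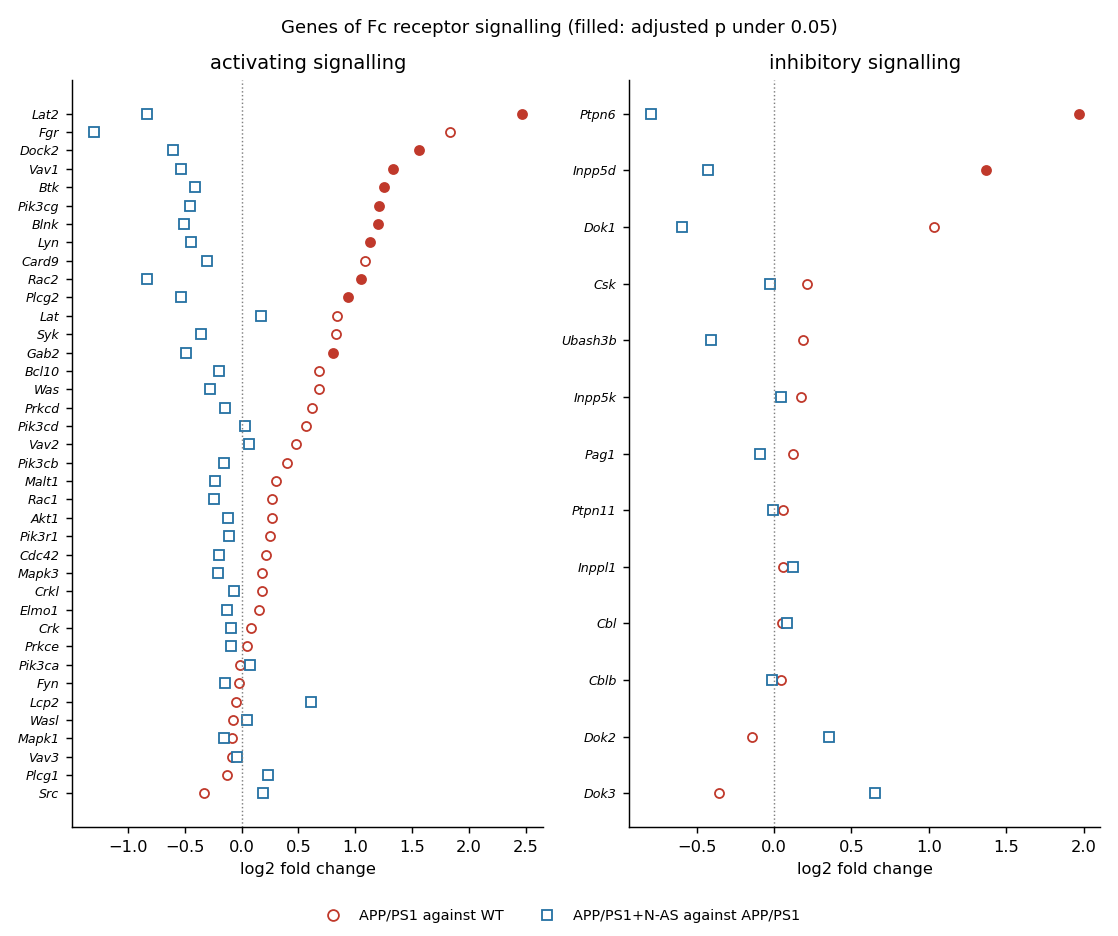
log2 fold change (x axis) of genes of activating and inhibitory Fc receptor signalling that are reported singly, ordered by APP/PS1 against WT (circles), with APP/PS1+N-AS against APP/PS1 as squares. Filled symbols have an adjusted p under 0.05. The filled symbols are all circles to the right of 0, from 0.80 for Gab2 to 2.47 for Lat2 on the left and 1.37 for Inpp5d and 1.97 for Ptpn6 on the right.

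Of 13 genes of the inhibitory pathway 2 were called higher in APP/PS1, against 2.67% of all genes, and the median log2 fold change was 0.12 (−0.074 over all genes). Inpp5d, the lipid phosphatase that Fcgr2b recruits, had 46.7, 46.3 and 55.9 CPM in WT, 121, 133, 132 and 127 CPM in APP/PS1 and 98.9, 123 and 64.1 CPM in APP/PS1+N-AS libraries. The APP/PS1 values were alike in all libraries, while N-AS library 3 lay near WT. Inpp5d was higher in APP/PS1 by 1.37 ± 0.20 (adjusted p = 0.00437) and Ptpn6, a tyrosine phosphatase, by 1.97 ± 0.27 (adjusted p = 0.00331, both edgeR). After N-AS none of the 13 was called, and Ptpn6 had −0.80 ± 0.26 (unadjusted p = 0.01, adjusted p = 0.497, edgeR).

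Other receptors that use the γ chain of Fcer1g were hardly counted. Of the 11 receptors listed, 7 were tested and none was called in any comparison. The 10 receptors found in the files summed to 4.02 to 18.7 CPM in WT libraries, 6.13 to 17.2 CPM in those of APP/PS1 and 5.98 to 6.31 CPM in APP/PS1+N-AS libraries. Fcer1a, the ligand-binding chain of the IgE receptor on mast cells, had 0 to 5 reads per library. Lilra6 had the lowest p for APP/PS1+N-AS against WT (−2.54 ± 0.85, unadjusted p = 0.0129, adjusted p = 0.542, edgeR), with 2 to 27 reads per library, and Lilra5 had the lowest p for APP/PS1 against WT (log2 fold change 1.25 ± 0.54, adjusted p = 0.263, edgeR) at 0.88 to 2.03 CPM on average.

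FcRn needs β2-microglobulin, and B2m was called higher in APP/PS1 whereas Fcgrt was not. B2m had 118, 139 and 47.7 CPM in WT, 247, 275, 271 and 380 CPM in APP/PS1 and 167, 189 and 92.1 CPM in APP/PS1+N-AS libraries. WT library 3 and N-AS library 3, both of the second set, were the lowest of their groups. B2m was higher in APP/PS1 than in WT by 1.53 ± 0.37 (adjusted p = 0.0468) and had −0.97 ± 0.36 after N-AS (unadjusted p = 0.0199, adjusted p = 0.517, all edgeR). β2-microglobulin is also the light chain of MHC class I. B2m was the only gene called among 8 genes of FcRn pairing and IgG recycling, and 2.67% of all genes were called higher in APP/PS1. Myo5b had the lowest p in the other direction (−0.44 ± 0.11, adjusted p = 0.0505, edgeR).

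Among 14 other Fc receptors and Fc receptor-like genes 11 were tested and 1 was called, higher in APP/PS1 than in WT, as 2.67% of all genes were. Fcrls, an Fc receptor-like gene used as a marker of microglia, had 38.5 ± 9.97 CPM in WT (SD, n = 3), 116 ± 30.3 CPM in APP/PS1 (n = 4) and 73.6 ± 10.8 CPM in APP/PS1+N-AS libraries (n = 3). It was higher in APP/PS1 by 1.59 ± 0.24 (adjusted p = 0.005) and overlapped between the APP/PS1 groups (−0.66 ± 0.23, adjusted p = 0.509, both edgeR). Pigr, the receptor that carries polymeric IgA and IgM across epithelia, was counted at far higher levels than any member, with 44681 to 217508 reads per library, and is listed here as a value only. Whether these reads came from Pigr transcripts was not tested. It varied from 2154 to 11310 CPM in WT libraries, 6241 to 18770 in those of APP/PS1 and 5986 to 12860 in APP/PS1+N-AS libraries, with overlap of all groups (log2 fold change 0.61 ± 0.57 for APP/PS1 against WT, adjusted p = 0.651, edgeR). Antibody genes themselves were not analysed here except Jchain, which joins polymeric IgA and IgM. It had 53 to 263 reads per library and was not called in any comparison. Its log2 fold change was 0.79 ± 0.35 for APP/PS1+N-AS against APP/PS1 (unadjusted p = 0.0477, adjusted p = 0.56, edgeR). For APP/PS1+N-AS against WT it was 0.88 ± 0.38 (unadjusted p = 0.0432, adjusted p = 0.713, edgeR), and for APP/PS1 against WT 0.09 ± 0.36.

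Across the 10 libraries the members fell into a group of 4 and 2 others. The log2 CPM of Fcgr1, Fcgr2b, Fcgr3 and Fcer1g had Pearson's r from 0.924 to 0.983 with each other. Fcgr4 and Fcgrt had r from 0.073 to 0.314 with the other members. These values, like those that follow, are descriptions over libraries that share their groups, and have no test. The genes most like Fcer1g were Ctsl (r = 0.996), Ctsd (0.996), both lysosomal proteases, and Plxdc2 (0.993). For Fcgr3 they were Tyrobp (0.996), another ITAM chain of microglia, Ctsz (0.992) and Slc15a3 (0.991). For Fcgr2b they were Ptprc (0.997), the leukocyte antigen CD45, Mpeg1 (0.995) and Ctss (0.995), and for Fcgr1 Parvg (0.988), Sash3 (0.982) and Samsn1 (0.982). Fcgrt was most like Igfbp2 (0.917), Mir483 (0.917) and Ctso (0.915). Fcgr4, with its few reads, was most like 4833427G06Rik (0.976), Ms4a2 (0.96) and Gm21637 (0.902).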

How the data were processed

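RNA seq was done on microglia from mouse cortex, separated after papain digestion by a density gradient, with ribosomal RNA removed and stranded libraries made from RNA of 2 pooled mice each. The authors aligned the reads with TopHat to mm10 (named in the submitters' processing notes; versions and annotation are not given in the sources used here) and deposited whole-number counts of reads per gene symbol, without normalization or a filter. The FPKM values of the study were not used.

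The files hold 24481 lines and 24421 symbols, and counts of lines sharing a symbol were summed. Genes were filtered with filterByExpr, scaled by TMM and tested with edgeR 4.0.16 (R 4.3.3) in one quasi-likelihood model of the 3 groups with 10 libraries. The Benjamini-Hochberg method was applied over the 18727 genes tested, and calls had an adjusted p under 0.05. The common dispersion was estimated at 0.0752. CPM used the TMM factors, and log2 CPM a prior count of 2. No molecular identifiers were used in the PCR, so read counts are not counts of molecules. Nothing says that pools of a group came from separate litters or days, so p-values measure the spread between these pools. Gene positions and lengths came from GENCODE M21 (GRCm38, the assembly of mm10), and promoters from RefSeq. The tests were tried on simulated counts.

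The members and the lists of genes were chosen with earlier results of these data known. The 6 members are named with all values. The rule allowed from each list the genes with the lowest p in each direction of each comparison, up to 4 a list, of which the text gives some, and for each member the 3 genes with the highest correlation. Syk, Pigr, Fcer1a, Gfap, Cnp, S100a9, S100a4, Plac8 and further genes called among the signalling genes were named outside this rule. Counts cover whole lists, and 1 gene of the activating list is not reported singly here. Alternatives were upper-quartile scaling, total counts, DESeq2 size factors, DESeq2 1.42.0, limma 3.58.1 (voom with quantile normalization), no filter, at least 10 counts in every library, a fit of 2 groups, a replicate block, the set of library numbers as a covariate and each library left out. Values within each set of library numbers, and N-AS library 3 alone against WT, were added after the data had been seen.

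Replicate numbers come from the labels. The pairing was checked by correlating same-numbered libraries after removing group means. For numbers 1, 2 and 3 of APP/PS1+N-AS and APP/PS1, r was 0.278, 0.142 and 0.309, and these were taken as paired. The main model nevertheless had no block, and the replicate block was fitted as an alternative only. APP/PS1 library 4 has no partner of its number, so the block gives it no weight in the comparisons. For APP/PS1 and WT, r was −0.485, 0.441 and −0.00962, and for APP/PS1+N-AS and WT it was −0.136, 0.348 and 0.24. These were not taken as paired. Among libraries of the other groups, the most alike had the same number for 3 of the 10 libraries, so the pairing is uncertain.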

Additional observations from a re-analysis of the deposited data

How the results depend on the processing

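Fcer1g, Fcgr2b and Fcgr3 kept their adjusted p under 0.05 for APP/PS1 against WT under every alternative run with a test, and Fcgr1 kept its direction. The number of members called there was 3 with the replicate block, where Fcgr1 had an adjusted p of 0.0965. For APP/PS1+N-AS against APP/PS1, DESeq2 called 1 member and the other fits none. The number of members at an unadjusted p under 0.05 in that comparison was 2 with the replicate block and 2 to 4 when single libraries were left out. The share of all genes at an unadjusted p in these fits is not given here. For APP/PS1+N-AS against WT, 3 members were called, against 1 with total counts only, 1 with limma, 0 in the fit of only the 2 groups, 0 with the replicate block, 0 with N-AS library 3 alone and 0 to 3 when single libraries were left out. The block, which also gives APP/PS1 library 4 no weight, changed no other call of a member.

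Signs that turned were those of genes with no call. Fcgr4 had −0.21 on the log2 scale for APP/PS1 against WT with the block and −0.24 to 0.84 when single libraries were left out, and −0.072 to 0.60 for APP/PS1+N-AS against APP/PS1. Fcgrt had −0.18 to 0.105 for APP/PS1+N-AS against WT. The cause was not tested.

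The number of genes called for APP/PS1 against WT was 649, and moved most with DESeq2 (1345), the set of library numbers as a covariate (1055), the 2 groups alone (410), the block (326) and single libraries left out (299 to 923). For APP/PS1+N-AS against APP/PS1 it was 0, with DESeq2 79 and with a library left out 0 to 1. For APP/PS1+N-AS against WT it was 35, with DESeq2 188, limma 20, the covariate 64, the 2 groups 2, the block 5, N-AS library 3 alone 2 and a library left out 1 to 116. Few reads limit Fcgr4 above all, with 10 reads in its lowest library. The libraries also differed in genes counted at a very low level. WT library 1 had the lowest total but the fewest genes with 0 reads (566, against 837 to 3985 elsewhere). The 1095 olfactory receptor genes together had 0.786 CPM per kilobase in it and 0.102 to 0.245 elsewhere. Fcgr4 had 2.85 CPM in that library, its highest in WT. The part of such background in the values of Fcgr4 was not tested.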

Other observations

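Gfap, the intermediate filament of astrocytes, had a mean of 14.7 CPM in WT, 735 CPM in APP/PS1 and 231 CPM in APP/PS1+N-AS libraries, although the libraries were made from separated microglia. It was higher than WT by 5.65 ± 0.55 on the log2 scale in APP/PS1 (adjusted p = 0.000545, edgeR) and by 3.98 ± 0.52 in APP/PS1+N-AS (adjusted p = 0.0187, edgeR). The other astrocyte markers were not called, and Slc1a3, the glutamate transporter, had 194, 171 and 192 CPM.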
